A study of Mus musculus with 22 samples.

Results

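Genes of enteric neurons and glia were followed in the colon of mice given dextran sodium sulfate (DSS), a polymer in the drinking water that injures the colonic epithelium. The set was a fixed list of 30 of the 18194 genes measured, 27 of neurons and 3 of glia. Membership was given by gene name, with no threshold on the values. Among the probe sets annotated to 1 gene alone, the one whose interquartile range over the 22 arrays was largest stood for each gene. Of the 30 members, 20 belonged to the more variable 50% of genes (9097) and were tested, and all 20 were neuron genes. The 10 others, with the 3 glia genes among them, varied too little and are described by their values.

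All mice were PPAR γ fl/fl, so both genotypes carried the floxed alleles. VC- mice had no Villin Cre transgene and VC+ mice had it. Villin Cre is active in the intestinal epithelium, so neurons, glia and muscle keep PPAR γ in both genotypes. The study used mice of a mixed FVB/C57BL/6 background and mice backcrossed to C57BL/6. Its array methods do not say which of them gave these arrays. Their age is not given in the sources used here. Both genotypes were sampled at day 0 without DSS and at days 2 and 7 of 2.5% DSS, which gave 3, 3 and 4 arrays of VC- mice and 3, 5 and 4 arrays of VC+ mice. The study asked how epithelial PPAR γ shapes the response of the colon to DSS. Nothing in the labels ties an array to a mouse of its own, so p-values measure the spread between these samples. All levels below are GC-RMA log2 signals, on which a step of 1 is a doubling, and signals of different genes are not comparable, since each probe set has its own brightness.

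The enteric nervous system lies in the gut wall as ganglia between the muscle layers and in the submucosa, with nerve fibers that reach into the mucosa. Its neurons drive and restrain muscle contraction, secretion and blood flow through acetylcholine, tachykinins, nitric oxide and vasoactive intestinal peptide, and glia surround their cell bodies and fibers. Neurons and glia both descend from neural crest cells that need the receptor Ret and the transcription factor Sox10 to settle in the gut.

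The labels call the tissue colonic mucosa, whereas the RNA came from homogenized tissue. Smooth muscle was present on every array, with Actg2, enteric smooth muscle actin, between 11.5 and 14.5 and Des, the muscle filament desmin, between 9.19 and 11.7. Pparg ranged from 6.26 to 11.0 over all arrays. It was 9.58 to 9.63 in VC- and 8.501 to 8.83 in VC+ mice at day 0. The day 7 values were 9.82, 7.39, 8.38 and 8.57 in VC- mice and 10.4, 10.1, 8.54 and 6.26 in VC+ mice, so VC+ replicates 1 and 2 lay above every VC- array. Whether its probe set lies in the deleted part was not determined, so it is no check of the genotype labels. VC- day 7 replicate 2 stood apart. Its mean correlation with its own group over the tested genes was 0.743, against 0.83 to 0.884 on the other VC- day 7 arrays and at least 0.906 on all remaining arrays. Vil1, the epithelial protein villin, was 8.46 there and 11.9 to 12.9 elsewhere, and Prss2, a pancreatic trypsinogen, was 14.7. Prss2 was also high on VC- day 0 replicate 3 (13.8) and VC+ day 7 replicate 4 (11.2) and at most 4.20 on the other 19 arrays. Xist, an RNA of female cells, was at 11.4 to 11.9 on 6 arrays and at most 2.08 on the others, which included every array of day 7. The 6 arrays were replicate 2 of VC- mice before DSS, their replicates 2 and 3 at day 2, and, in VC+ mice, replicate 3 before DSS with replicates 4 and 5 of day 2. In bulk tissue, fewer cells of a type and less RNA per cell cannot be told apart.

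Promoter sequence was at hand for 21 of the 30 members. The 250 bases before a RefSeq transcript start (build GRCm38.p6) were searched for the cAMP response element TGACGTCA on both strands, which 1.55% of all 32851 promoters held, and for the TATA box TATAAA on the gene's strand, which 7.59% held. The element TGACGTCA was found before Scg2, Th and Cartpt, at 68, 45 and 112 bases from the start, and TATAAA before Vip and Prph. Of these genes, Scg2, Vip and Prph varied between arrays, whereas Th was flat. Scg2, Th and Vip are shown, on the gene's strand with the matched letters in capitals, because they set 1 flat gene beside a pair that varied. The Scg2 window is chr1:79440027-79440276 (minus strand), the Th window chr7:142899996-142900245 (minus strand) and the Vip window chr10:5638968-5639217 (plus strand).
Scg2: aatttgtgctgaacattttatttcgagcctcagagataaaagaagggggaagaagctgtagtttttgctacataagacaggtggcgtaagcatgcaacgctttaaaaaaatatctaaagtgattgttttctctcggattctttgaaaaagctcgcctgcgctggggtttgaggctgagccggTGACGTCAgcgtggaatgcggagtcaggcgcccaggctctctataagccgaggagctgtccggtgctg
Th: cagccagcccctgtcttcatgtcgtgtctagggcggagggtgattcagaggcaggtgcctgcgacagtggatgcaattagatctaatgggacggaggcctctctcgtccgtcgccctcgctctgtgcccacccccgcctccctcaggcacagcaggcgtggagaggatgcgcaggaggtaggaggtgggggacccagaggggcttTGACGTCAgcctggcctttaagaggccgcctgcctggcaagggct
Vip: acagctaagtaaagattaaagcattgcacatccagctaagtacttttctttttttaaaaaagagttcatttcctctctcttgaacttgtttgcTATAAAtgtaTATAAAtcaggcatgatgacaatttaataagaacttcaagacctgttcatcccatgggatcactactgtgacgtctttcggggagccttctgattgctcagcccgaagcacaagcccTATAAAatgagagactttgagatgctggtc
Scg2 ranged from 6.54 to 10.3 over the arrays and Th from 2.33 to 2.41. Vip held TATAAA at 157, 147 and 30 bases before the start. A match of letters describes the window and does not show binding.

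**Figure D1:**
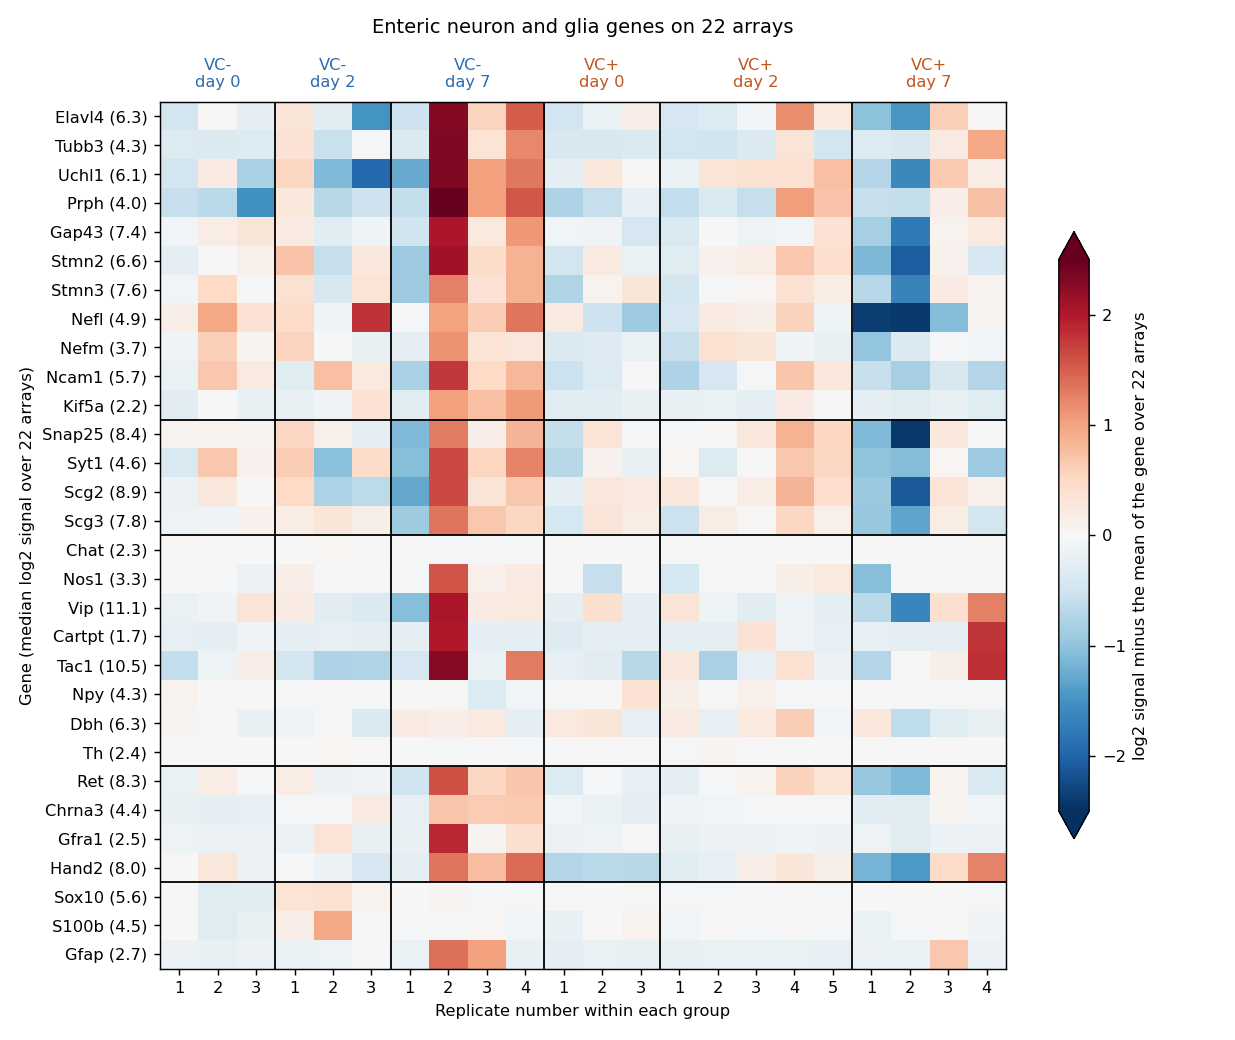
Log2 signal of the 30 genes (rows, grouped from top to bottom as structural and axonal, vesicle and secretory, transmitters, receptors and a transcription factor, and glia) on the 22 arrays (columns, by genotype and day), as the difference from the mean of the gene over 22 arrays; the median signal is in brackets. Most structural and vesicle genes shared 1 pattern, with VC- day 7 replicate 2 highest and VC+ day 7 replicate 2 lowest, and Chat, Th, Npy and Sox10 hardly varied.

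Of the 27 neuron genes, 20 varied enough to be tested and 7 did not. Vip and Tac1, which encode the relaxing peptide VIP and the contracting peptide substance P, were tested and ranged from 9.55 to 13.2 and from 9.89 to 13.0. The tested genes Ret, Snap25, Scg2, Scg3, Hand2, Gap43 and Stmn3 had medians of 7.43 to 8.86. Chat, Th and Cartpt, which were not tested, had medians of 2.31, 2.35 and 1.67. With Kif5a, which was tested, these were the 4 members under a signal of 4 on every array. A low signal here is that of 1 probe set and gives no measure of how many cholinergic or catecholaminergic neurons were present.

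Structural and axonal genes varied most. Prph encodes peripherin, an intermediate filament of peripheral and enteric neurons. In VC- mice its signal was 4.00, 3.91 and 3.07 at day 0 and 4.84, 3.88 and 4.06 at day 2. At day 7 it was 3.98, 7.94, 5.60 and 6.12. Replicate 1 of day 7 lay within the day 0 range and the 3 other arrays above it, so the groups overlapped. The day 0 mean of 3.66 ± 0.51 (SD, n = 3) compared with a day 7 mean of 5.91 ± 1.63 (SD, n = 4). The log2 fold change was 2.25 ± 0.64 (SE), with an adjusted p of 0.0369. In VC+ mice Prph was 3.80, 3.99 and 4.36 at day 0, and 3.96, 4.20, 3.99, 5.61 and 5.28 at day 2. At day 7 it was 3.99, 3.97, 4.74 and 5.30, a change of 0.45 ± 0.64 (SE) with an adjusted p of 0.830. Of the 3 other Prph probe sets, 2 were flat at 1.43 to 1.49 and 1 stayed between 3.93 and 4.42.

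Kif5a, a neuronal kinesin that carries cargo along axons, was 2.13, 2.40 and 2.22 in VC- mice at day 0. It was 2.12, 3.44, 3.17 and 3.47 at day 7, again with replicate 1 at the day 0 level and the 3 others above it. The change was 0.80 ± 0.25 (SE), with an adjusted p of 0.0487, at the edge of the threshold of 0.05. In VC+ mice Kif5a stayed at 2.11 to 2.23 at days 0 and 7. All values lay below a signal of 4, and the 2 other Kif5a probe sets did not follow it (r = -0.56 and -0.67 over the arrays). Its interquartile range of 0.263 was just above the filter's cut of 0.246, and the high VC- day 7 arrays counted toward that range. With no variance filter Kif5a was not called.

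Elavl4 encodes the neuronal RNA-binding protein HuD. It was 5.93, 6.41 and 6.14 in VC- mice at day 0, and 5.86, 8.67, 6.93 and 7.90 at day 7. Its change of 1.18 ± 0.59 (SE) did not pass the test (adjusted p = 0.170). In VC+ mice it was 5.91, 6.22 and 6.54 at day 0, and 5.36, 4.92, 6.97 and 6.41 at day 7. Both other Elavl4 probe sets followed the one used (r = 0.90 and 0.80). Tubb3, the neuronal tubulin, was 4.28 to 4.31 in VC- mice at day 0 and 4.30, 6.96, 4.99 and 5.86 at day 7, with an adjusted p of 0.0783. Uchl1, a ubiquitin hydrolase abundant in neurons, was 5.11 to 6.12 at day 0 and 4.66, 8.26, 6.94 and 7.23 at day 7, with an adjusted p of 0.215. For Elavl4, Tubb3 and Uchl1, as for Prph and Kif5a, day 7 replicates 2, 3 and 4 of VC- mice were above every day 0 array and replicate 1 was not.

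Nefl, the light neurofilament chain, had its lowest group mean in VC+ mice at day 7. There it was 2.31, 2.28, 3.60 and 4.77, against 4.92, 4.17 and 3.78 at day 0. In VC- mice it was 4.86, 5.67 and 5.05 at day 0 and 4.65, 5.71, 5.32 and 6.03 at day 7. The remaining structural genes were Nefm, the middle neurofilament chain (2.77 to 4.87 over all arrays), the growth cone protein Gap43 (5.74 to 9.52), the tubulin-binding stathmins Stmn2 (4.45 to 8.61) and Stmn3 (5.83 to 8.77), and the adhesion molecule Ncam1 (4.97 to 7.55). All 5 were highest on VC- day 7 replicate 2, and 4 of them were lowest on VC+ day 7 replicate 2.

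Vesicle and secretory genes moved with the structural genes. Snap25 encodes a membrane protein of the transmitter release machinery. It was 8.42, 8.43 and 8.39 in VC- mice at day 0 and 7.24, 9.62, 8.51 and 9.19 at day 7. In VC+ mice it was 7.75, 8.67 and 8.29 at day 0 and 7.23, 5.93, 8.59 and 8.33 at day 7. Day 0 was thus tight in VC- mice, and both day 7 groups spread to both sides of it. Syt1, the calcium sensor of release, ranged from 3.49 to 6.22, and Scg2 and Scg3, secretogranins of dense-core vesicles, from 6.54 to 10.3 and from 6.35 to 9.02.

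Among transmitter genes, Vip was 11.0, 11.1 and 11.5 in VC- mice at day 0 and 10.1, 13.2, 11.4 and 11.4 at day 7. In VC+ mice it was 10.9, 11.6 and 10.9 at day 0 and 10.5, 9.55, 11.6 and 12.4 at day 7. Tac1 was 10.1, 10.6 and 10.9 in VC- mice at day 0 and 10.3, 13.0, 10.6 and 12.0 at day 7. In VC+ mice Tac1 was 10.5, 10.4 and 10.01 at day 0 and 9.97, 10.7, 10.9 and 12.5 at day 7. The highest array of each genotype at day 7 was the same for both peptides, VC- replicate 2 and VC+ replicate 4, which were also the day 7 arrays with pancreas signal.

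Dbh, the enzyme that makes noradrenaline from dopamine, was 5.71 to 6.95 with no change that passed the test, and its 2 other probe sets reached at most 3.04. The Dbh probe set used is of a kind whose probes can match other transcripts. Th, the first enzyme of catecholamine synthesis, was 2.33 to 2.41, and Chat, the enzyme that makes acetylcholine, 2.27 to 2.37. Npy, neuropeptide Y, was 4.01 to 4.72. Nos1, the neuronal nitric oxide synthase, was 4.90 on VC- day 7 replicate 2, 2.26 on VC+ day 7 replicate 1 and 2.74 to 3.57 elsewhere. Cartpt, the precursor of the CART peptide, was 3.90 on VC- day 7 replicate 2, 3.67 on VC+ day 7 replicate 4 and at most 2.25 on the other 20 arrays.

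Ret, the receptor for glial cell line-derived neurotrophic factor, was 8.23, 8.57 and 8.34 in VC- mice at day 0 and 7.89, 9.97, 8.90 and 9.08 at day 7. In VC+ mice it was 8.05, 8.35 and 8.18 at day 0 and 7.45, 7.29, 8.48 and 8.01 at day 7. Gfra1, its co-receptor, was 4.57 on VC- day 7 replicate 2 and 2.38 to 3.08 elsewhere. Chrna3, a nicotinic receptor subunit of ganglia, was 4.28, 5.18, 5.13 and 5.15 in VC- mice at day 7 and 4.23 to 4.71 on all other arrays. It was not among the tested genes. With all 18194 genes in the fit it was higher at day 7 in VC- mice (log2 fold change 0.66, adjusted p = 0.0311), and its 2 other probe sets followed it weakly or not at all (r = 0.39 and -0.40).

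Hand2, a transcription factor of enteric neuron differentiation, was 8.10, 8.39 and 7.96 in VC- and 7.37, 7.43 and 7.42 in VC+ mice at day 0, with no overlap. At day 2 it was 8.12, 7.96 and 7.68 in VC- mice and 7.80, 7.89, 8.26, 8.40 and 8.25 in VC+ mice, whose 5 arrays were all above their day 0 level. At day 7 it was 7.86, 9.44, 8.86 and 9.52 in VC- mice and 6.95, 6.66, 8.58 and 9.35 in VC+ mice. None of these differences passed the test, with adjusted p of 0.877 between genotypes at day 0 and 0.904 for VC+ mice at day 2.

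**Figure D2:**
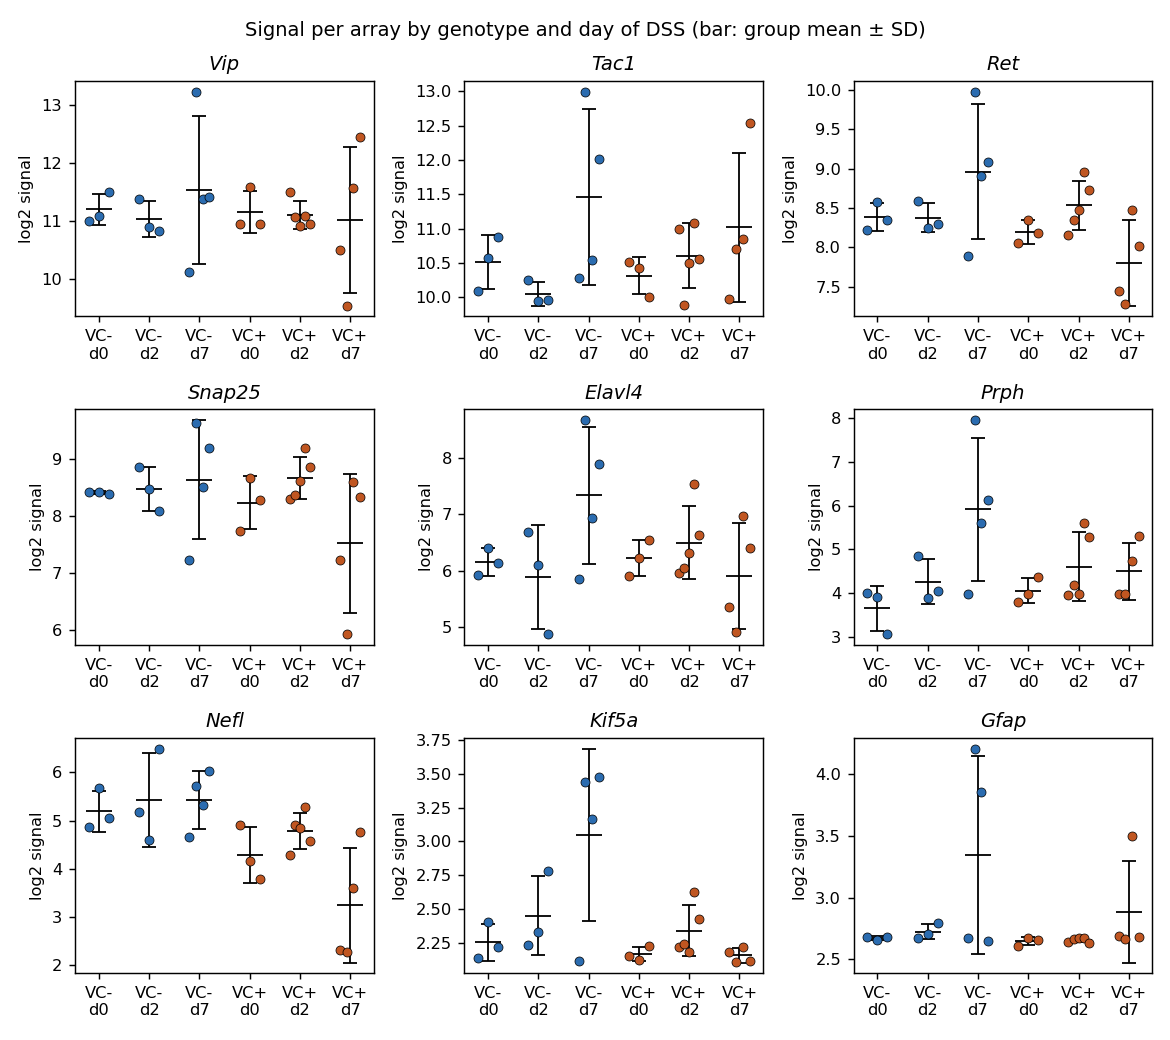
Log2 signal per array (points, blue for VC- and orange for VC+) of 9 genes in the 6 groups, with the group mean and SD (bars); each panel has its own vertical scale. The SD of Prph was 0.51, 0.51 and 1.63 at days 0, 2 and 7 in VC- mice and 0.28, 0.78 and 0.64 in VC+ mice.

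The 3 glia genes differed among themselves. After subtracting group means, their r with the mean of the tested neuron genes over the 22 arrays was 0.08 for Sox10, -0.11 for S100b and 0.55 for Gfap, and without VC- day 7 replicate 2 it was -0.09, -0.10 and 0.31. Sox10, a transcription factor that glia retain from the neural crest, was 5.64, 5.33 and 5.36 in VC- mice at day 0, 5.98, 6.02 and 5.73 at day 2, and 5.60 to 5.72 at day 7. In VC+ mice it stayed at 5.59 to 5.67 on all 12 arrays. With all 18194 genes in the fit, Sox10 was higher at day 2 than at day 0 in VC- mice by 0.47 ± 0.07 (SE), with an adjusted p of 0.0259, 1 of 3 genes called there (0.0165%). This SE and p rest on the spread pooled over all 6 groups. The SD of Sox10 was 0.17 at day 0 and 0.16 at day 2 in VC- mice, and 0.009 to 0.056 in the other groups. The pooled SE is thus tighter than the spread of the groups compared. The 2 other Sox10 probe sets were at 1.98 to 2.87 and followed it weakly (r = 0.15 and 0.41). Hoxb13, a gene of the distal colon, also differed between these days on every VC- array. It was 7.29, 9.13 and 9.67 at day 0 and 3.08, 2.95 and 2.88 at day 2. Whether the Sox10 change went with position along the colon was not tested.

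S100b, a calcium-binding protein of glia, was 4.74, 5.54 and 4.58 in VC- mice at day 2 and 4.26 to 4.65 on all other arrays. With all genes in the fit, its day 2 change of 0.56 did not pass the test (adjusted p = 0.946). The second S100b probe set was low, at 1.85 to 2.02, and had an r of 0.84 with the one used. Its highest value was on VC- day 2 replicate 2 and the next was 1.90, so this r leans on 1 array. VC- day 2 replicate 2, the highest array for Sox10 and S100b, was also the highest for flat, low probe sets such as that of Chat (2.37). Gfap, the glial filament protein, was 4.21 and 3.85 on VC- day 7 replicates 2 and 3, 3.50 on VC+ day 7 replicate 3 and 2.61 to 2.79 on the other 19 arrays. A second Gfap probe set followed it (r = 0.89) and the third was flat below 1.83. The highest glia signals therefore lay on different arrays for Sox10 and S100b than for Gfap.

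The first comparison asked how DSS changed these genes in VC- mice. At day 7, Prph and Kif5a were called higher, 2 of 20 tested members, beside 5.53% of all tested genes called higher and 10.6% called in either direction. With no variance filter neither was called, and Chrna3 was the only one of the 30 members called, beside 3.19% of all 18194 genes. All 20 fold changes were positive, with a median of 0.52 (log2), against -0.09 for all tested genes, and Tubb3 was the third member under an unadjusted p of 0.05 (3 of 20, beside 14.7% of all tested genes in that direction). The structural genes had a median of 0.67, the vesicle genes 0.37, the 3 tested transmitter genes 0.33 and the 2 tested genes of the receptor group 0.67. No member was without overlap between day 0 and day 7 (8.62% of all tested genes were higher without overlap). Without VC- day 7 replicate 2 no member was called and the median was 0.14, and without replicate 1 of that group 6 members were called (28.6% of all tested genes), namely Prph, Kif5a, Elavl4, Ret, Tubb3 and Uchl1, and the median was 0.96. Leaving out any VC- day 0 array, or VC- day 7 replicate 3 or 4, also left no member called, and leaving out other groups' arrays left 1 or 2. Hoxb13, a gene of the distal colon, moved with this comparison. Its signal was 7.29, 9.13 and 9.67 before DSS, against 3.81, 2.86, 3.03 and 9.62 after 7 days, and with Hoxb13 as a term in the fit no member was called (5.77% of all tested genes) and the median was 0.57.

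At day 2 in VC- mice no member was called by limma (0.011% of all tested genes in either direction), none had an unadjusted p under 0.05 (4.58%), and 13 of 20 fold changes were negative, with a median of -0.04. The direction of this median turned with the arrays used, being -0.16 when replicate 1 of day 0 was left out and 0.11 when replicate 2 of day 0 was, and it was 0.37 without the arrays with Xist signal, which left 1 array at day 2. In VC+ mice at day 2 no member was called (0.055% of all tested genes) and none had an unadjusted p under 0.05 (6.57%), while 19 of 20 fold changes were positive, with a median of 0.27. Replicates 4 and 5 of that group carried much of this, with 19 and 13 of the 20 genes above every VC+ day 0 array. Replicates 4 and 5 were also the arrays of that group with Xist signal. Smooth muscle was above its mean on every array of the group, replicate 3 among the highest, as given below. Without the arrays with Xist signal the median was 0.12, and without replicate 4 alone it was 0.17. Hoxb13 was 12.4, 3.09 and 2.88 in VC+ mice at day 0 and 12.4, 3.07, 9.45, 10.4 and 11.2 at day 2. On the VC- arrays of day 2 it was 3.08, 2.95 and 2.88, so it also differed between the genotypes there. Scg3 in VC- mice and Hand2 in VC+ mice were higher at day 2 without overlap, beside 7.83% and 4.17% of all tested genes.

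In VC+ mice at day 7 no member was called by limma (1.75% of all tested genes), and none had an unadjusted p under 0.05 (13.7%). With array quality weights, which let less uniform arrays count less, 7 were called lower, namely Nefl, Ret, Scg2, Scg3, Snap25, Stmn2 and Stmn3, beside 16.6% of all tested genes in either direction. Of 20 fold changes 16 were negative, with a median of -0.35, and Tac1, Tubb3, Hand2 and Prph were positive. The median was -0.05 without VC+ day 7 replicate 2 and -0.60 without replicate 3, the extremes over the arrays left out. The 4 vesicle genes were all negative, with a median of -0.69. The arrays did not move together. Replicates 1 and 2 had 15 and 17 genes below every VC+ day 0 array and 1 gene each above them. Replicate 3 had 10 genes above and 2 below, and replicate 4 had 7 above and 5 below. In VC- mice at day 7, replicate 1 had 16 genes below every VC- day 0 array, and replicates 2, 3 and 4 had 20, 12 and 17 genes above them.

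**Figure D3:**
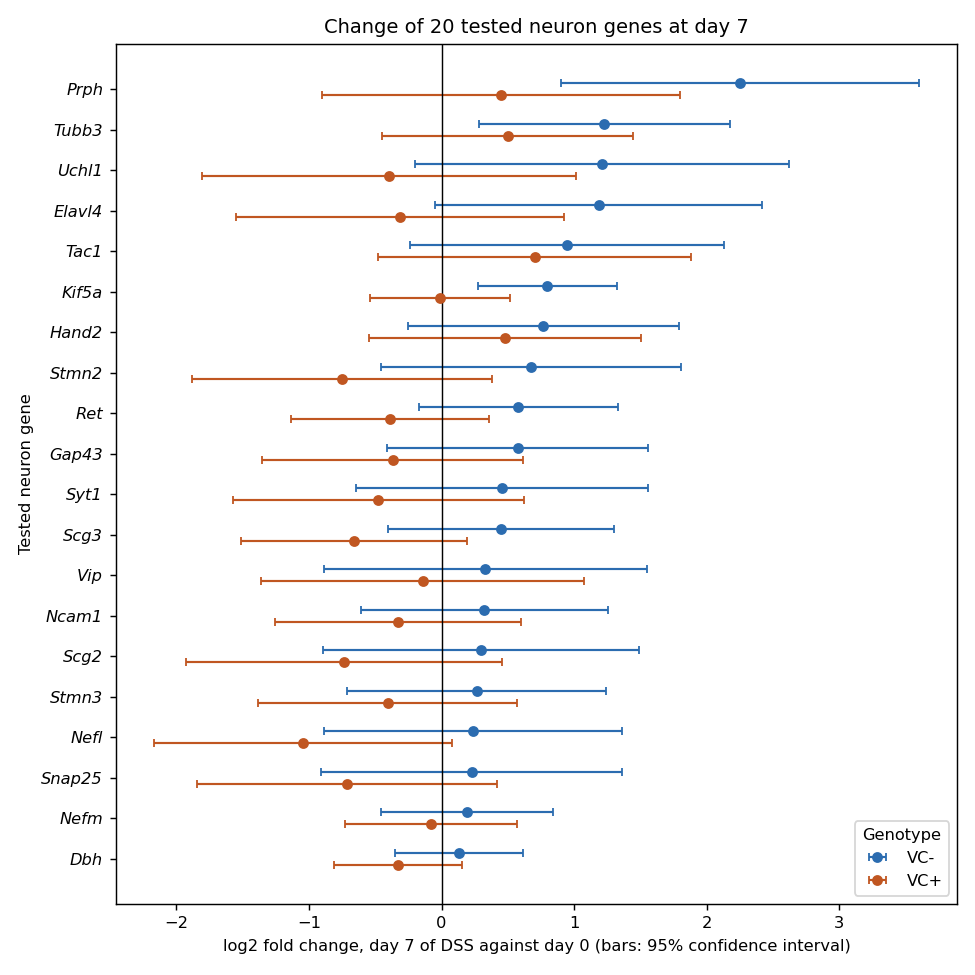
Log2 fold change of the 20 tested neuron genes (rows) from day 0 to day 7 of DSS in VC- (blue) and VC+ mice (orange), with 95% confidence intervals from limma. All VC- values lie above 0 and 16 of 20 VC+ values below it, and the intervals of the 2 genotypes overlap for every gene.

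The second question was whether the genotypes differed. At day 7, all 20 members were lower in VC+ than in VC- mice, with a median of -1.08 (log2), against 0.08 for all tested genes. None was called by limma, and no gene of the 9097 was called (0.0%), with the lowest adjusted p among members at 0.303. At an unadjusted p under 0.05, 14 of 20 members were lower, beside 6.33% of all tested genes. The median was -1.24 for the structural genes, of which 9 of 11 were under that p, and -1.08 for the vesicle genes, with 3 of 4. It was -0.44 for the transmitter genes, with 0 of 3, and Ret and Hand2 were both under it.

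Nefl had the largest difference, with means of 5.43 ± 0.59 (SD, n = 4) in VC- and 3.24 ± 1.19 (SD, n = 4) in VC+ mice, a log2 difference of -2.19 with a 95% confidence interval of -3.23 to -1.15. The size of this difference depended on the probe set. A second Nefl probe set (r = 0.82 with the one used) had closer day 7 means, 3.97 in VC- and 3.56 in VC+ mice. Ret differed by -1.16 (-1.85 to -0.46), Elavl4 by -1.43 (-2.57 to -0.28) and Stmn2 by -1.50 (-2.55 to -0.46). Vip differed by -0.51 (-1.64 to 0.61) and Tac1 by -0.44 (-1.54 to 0.65), intervals that hold both no difference and a large one. No member was without overlap between the genotypes at day 7, beside 0.451% of all tested genes that were lower in VC+ mice without overlap.

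The genotype difference at day 7 depended on single arrays. Without VC- day 7 replicate 1, which had low signals, 16 members were called lower, beside 13.3% of all tested genes called, and with array quality weights 17 were called, beside 17.5%. Without VC- day 7 replicate 2, Vip and Tac1 differed by 0.05 and 0.07, and the differences of the structural genes were smaller as well. Prph went from -1.41 to -0.73, Tubb3 from -0.76 to -0.29, Elavl4 from -1.43 to -0.99 and Gap43 from -1.28 to -0.84. The difference of the day 7 responses (VC+ minus VC-) was negative for all 20 members, with a median of -0.94, and none was called (0.0% of all tested genes). Only Kif5a was under an unadjusted p of 0.05 there (1 of 20, beside 2.96%), and 5 members were called with array quality weights (8.71%). These comparisons share their VC- and VC+ day 7 arrays and are not independent of each other.

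Before DSS the genotypes did not differ by the test, with no member called (0.011% of all tested genes) and none under an unadjusted p of 0.05 (6.6%). Gap43, Nefm and Hand2 were lower in VC+ mice without overlap, 3 of 20 members beside 10.6% of all tested genes. All 19 smooth muscle genes were lower in VC+ mice at day 0 as well, with a median of -0.54, beside 50.8% of all tested genes. Hoxb13 was 7.29, 9.13 and 9.67 in VC- and 12.4, 3.09 and 2.88 in VC+ mice. The part of tissue makeup and position in these differences was not tested. At day 2 no member was called between the genotypes (0.044%) or for the difference of the day 2 responses (0.022%), and none was under an unadjusted p of 0.05 in either comparison (12.3% and 6.46%). At day 2 the largest value was Uchl1, 1.18 higher in VC+ mice with an adjusted p of 0.472.

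The neuron genes were high or low together from array to array. After subtracting group means, each tested member was correlated with the mean of the other 19 over the 22 arrays. The median r was 0.871, and 19 of 20 were above 0.5, whereas the median of the 9077 other tested genes with the neuron mean was -0.112 and 20.5% were above 0.5. Ret (0.96), Scg2 (0.96) and Stmn2 (0.95) were most like the mean of the rest, and Dbh (0.02) was the exception. Without VC- day 7 replicate 2 the median was 0.831. With the mean of 19 smooth muscle genes, the tested members had a median r of 0.224 and 0 of 20 were above 0.5, and without that array the median was 0.568 and 12 of 20 were above 0.5. Of the 19 smooth muscle genes, 21.1% had an r above 0.5 with the neuron mean, and 63.2% without that array, beside 16.1% of the other tested genes. All genes were read on the same arrays and share their tissue makeup, and genes are not independent replicates.

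**Figure D4:**
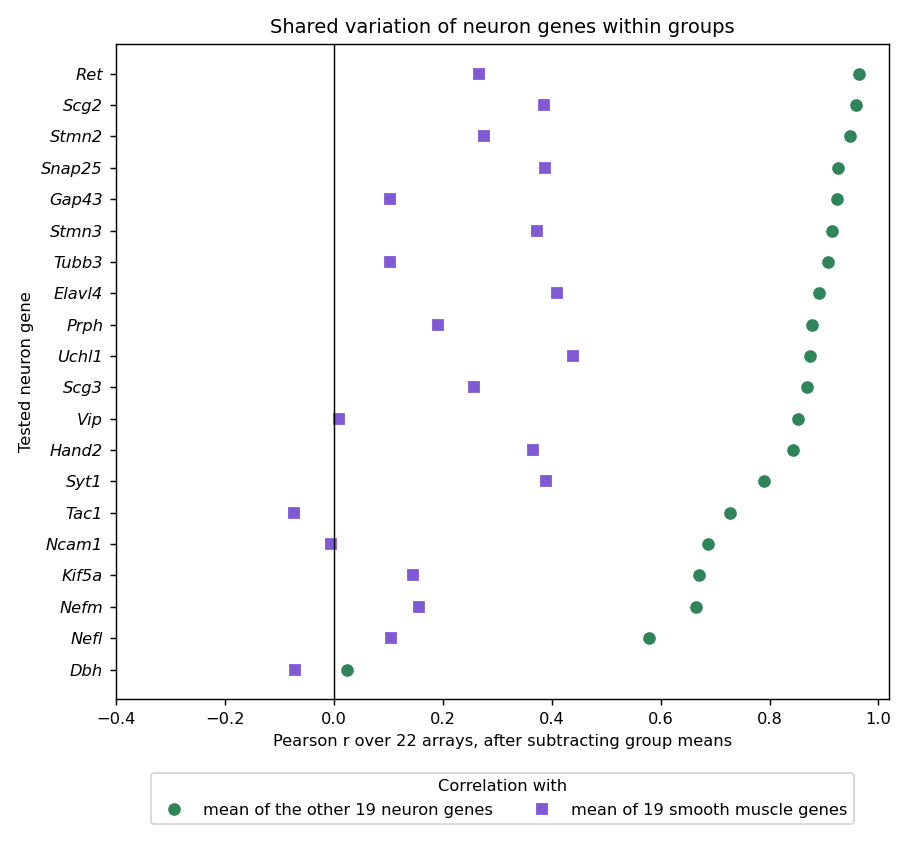
Pearson r over the 22 arrays, after subtracting group means, of each tested neuron gene (rows) with the mean of the other 19 neuron genes (circles) and with the mean of 19 smooth muscle genes (squares). The circles lie at a median of 0.871 and the squares at 0.224, and Dbh is near 0 for both; without VC- day 7 replicate 2 the median of the squares was 0.568.

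Other genes of the enteric nervous system were read from lists of gene names. Of 43 other neuron genes measured, 23 were tested. At day 7 in VC- mice Crmp1, a growth cone protein, was called higher by 1.21 and Nmu, the peptide neuromedin U, lower (log2 fold change -1.91), with adjusted p of 0.0456 and 0.0460. Nmu was also called lower in VC+ mice at day 7 (-2.70, adjusted p = 0.0222), and no other gene of that list was called in any of the 9 comparisons. Between the genotypes at day 7, 21 of 23 were lower in VC+ mice, with a median of -0.84, beside 43.7% of all tested genes lower. Under an unadjusted p of 0.05, 9 of the 23 were lower, beside 6.33% of all tested genes. With the neuron mean, this list had a median r of 0.646. Of 12 other glia genes measured, 4 were tested and none was called in any comparison. At day 7, 3 of these 4 were lower in VC+ mice, beside 43.7% of all tested genes. Their median r with the neuron mean was 0.556, with 2 of 4 above 0.5. Of 11 neurotrophic ligands and receptors measured, 5 were tested and none was called, with a median of 0.80 at day 7 in VC- mice, 0.61 in VC+ mice and a lowest adjusted p of 0.0506.

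Markers of other cell types moved on the same arrays. The mean deviation of the 20 neuron genes from their own mean over all arrays was -0.64, 1.70, 0.47 and 0.93 on VC- day 7 replicates 1 to 4, and -0.84, -1.26, 0.10 and 0.17 on VC+ day 7 replicates 1 to 4. For 19 smooth muscle genes the same mean was -0.61, -0.94, 0.21 and 0.44, and -1.19, -1.15, -0.02 and -1.04. Muscle and neuron genes were thus low together on VC- replicate 1 and VC+ replicates 1 and 2, and went apart on VC- replicate 2 and VC+ replicate 4. On VC+ day 2 replicates 1 to 5 smooth muscle was at 0.58, 0.25, 0.92, 0.98 and 0.81. The neuron genes were at -0.24, -0.12, 0.01, 0.50 and 0.19 there. With the smooth muscle mean as a term in the fit, the median over the neuron genes was 0.78 in VC- mice at day 7, -0.11 in VC+ mice at day 7 and 0.01 in VC+ mice at day 2.

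Between the genotypes at day 7, 17 of 19 muscle genes were lower in VC+ mice, beside 43.7% of all tested genes. Their median was -0.76, and none was called. In VC- mice at day 7, 17 of 19 were negative, with a median of -0.56, beside 55.2% of all tested genes negative. Synpo2, a Z-disc protein, and Pln, a calcium pump inhibitor, were called lower (-3.64 and -3.01). Ano1, the chloride channel of interstitial cells of Cajal, was called lower in the same comparison (-1.37, adjusted p = 0.0429). Enteroendocrine cells also use secretory granule genes. The mean of 14 of their genes was -1.78 on VC- day 7 replicate 2 and -1.73 on VC+ day 7 replicate 4, and -0.37 to 0.88 on the other 20 arrays. Chga, chromogranin A, was 4.41 on VC+ day 7 replicate 4 and 6.57 to 9.75 on the other 20 arrays. On VC- day 7 replicate 2 it was 7.25, within that range. The mean of 8 epithelial genes was -3.32 on VC- day 7 replicate 2 and -0.14 to 0.51 on the other arrays. The mean of 8 pancreas genes was 6.76, 7.40 and 4.80 on the 3 arrays with Prss2 signal and at most -0.58 elsewhere. The part of muscle, epithelium and pancreas in the neuron values was not tested.

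**Figure D5:**
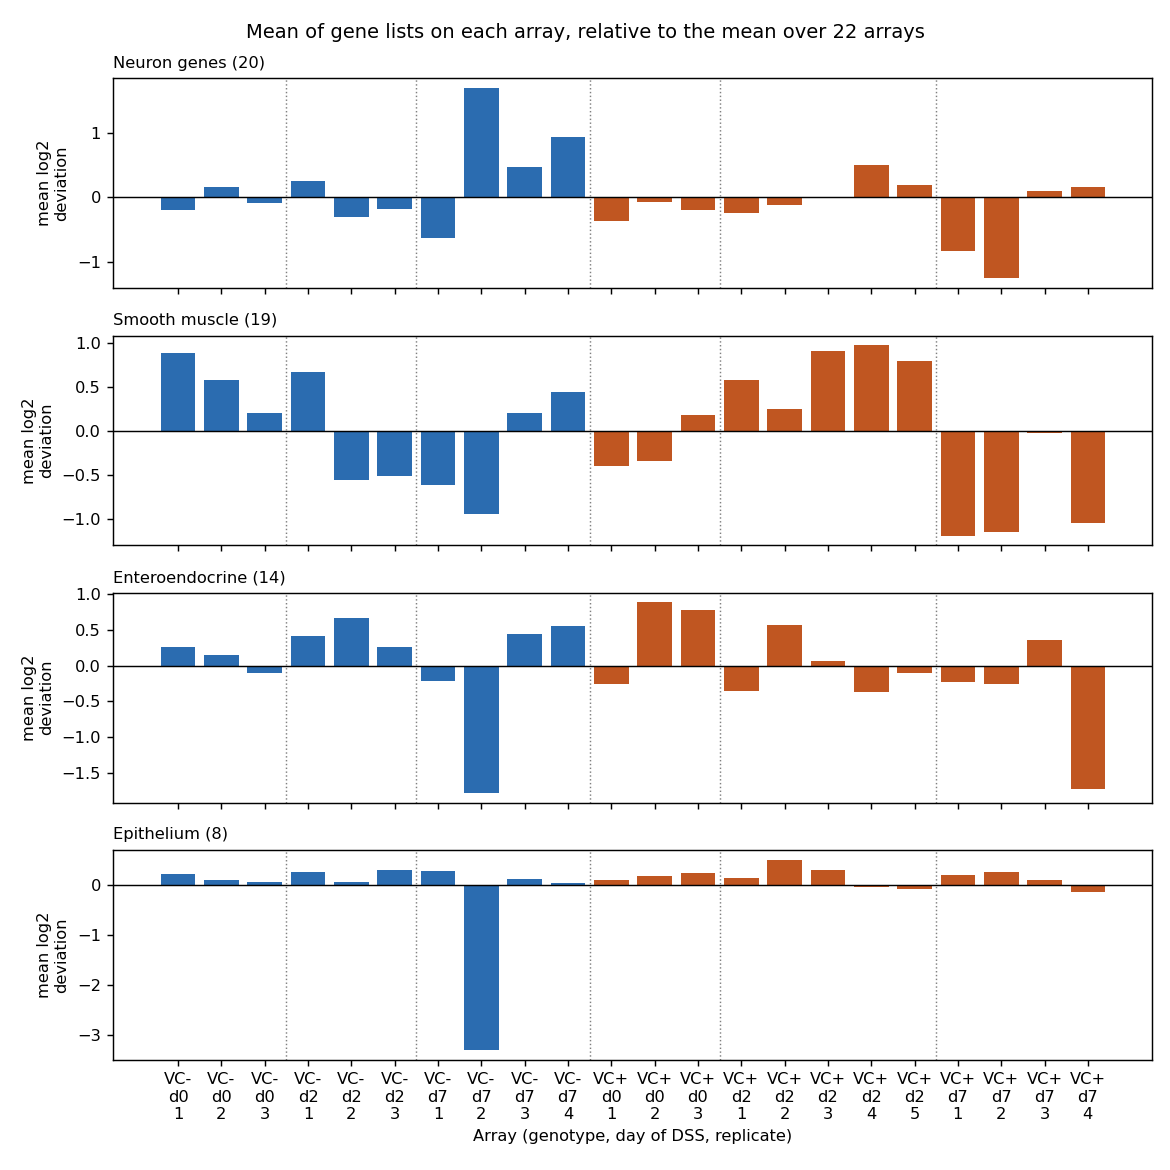
Mean log2 deviation of 4 gene lists on each of the 22 arrays (bars, blue for VC- and orange for VC+), relative to the mean over all arrays; each panel has its own vertical scale. The neuron genes are highest (1.70) on the array where epithelial genes are lowest (-3.32), and smooth muscle is low on 3 of the 4 VC+ day 7 arrays (-1.04 to -1.19).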

How the data were processed

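RNA from homogenized colonic tissue was hybridized to 22 Affymetrix mouse arrays. GC-RMA was applied by the authors (in R 2.10.1, per the submitters' notes), so the deposited values are log2 signals, corrected for background and normalized across arrays. They ran from 0.58 to 16.8 over 45101 probe sets, with array medians of 3.41 to 3.55. Such arrays give no counts, and their number limits the precision. Probe sets with 1 gene symbol were kept (34958) and reduced to 18194 genes by the largest interquartile range, and the upper 50% (9097 genes) were tested, following the filter of the study. The 6 group means were fitted with limma 3.58.1 in R 4.3.3 (lmFit, contrasts, eBayes), for 9 comparisons. Two-sided p-values were adjusted with the Benjamini-Hochberg method over all tested genes of a comparison, with a threshold of 0.05. The fit was tested on simulated data. All members are named. Genes outside the set are named where they passed the test or describe the arrays. The members and the lists were chosen with earlier results of these data known. Alternatives were other filters and probe sets, array weights, quantile normalization, a replicate block, terms for muscle, epithelium and Hoxb13 (a gene of the distal colon), and leaving out arrays. Promoters, gene positions and symbols came from RefSeq tables and the platform annotation.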

Additional observations from a re-analysis of the deposited data

Results flagged for a closer look

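Values far from the rest of their group were looked for in 90 sets, each 1 gene in 1 group of 4 or 5 arrays, and 14 stood apart. Chance alone gives about 1 in 20 such sets. In 5 of the 14 the whole range of the group was over 1 on the log2 scale. These were Cartpt at 3.90 on VC- day 7 replicate 2 and at 3.67 on VC+ day 7 replicate 4, Nos1 at 4.90 on VC- day 7 replicate 2 and at 2.26 on VC+ day 7 replicate 1, and Syt1 at 4.62 on VC+ day 7 replicate 3. The other 9 lay in tighter groups. At day 7 in VC- mice these were Chat (2.32) and Chrna3 (4.28) on replicate 1 and Dbh (6.09) on replicate 4. At day 7 in VC+ mice they were Npy (4.37) on replicate 1, Gfra1 (2.38) on replicate 2 and Gfap (3.50) on replicate 3. At day 2 in VC+ mice they were Vip (11.5) on replicate 1, Cartpt (2.25) on replicate 3 and Tubb3 (4.98) on replicate 4.

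In 4 cases every array of one genotype moved one way from its day 0 mean and every array of the other genotype moved the opposite way. The VC+ change less the VC- change was 0.21 for Cartpt at day 2, 0.95 for Hand2 at day 2, -0.50 for Sox10 at day 2 and -0.21 for Sox10 at day 7. One genotype hardly moved for Sox10 and Cartpt. Sox10 changed by -0.03 at day 2 and -0.02 at day 7 in VC+ mice, and Cartpt by -0.04 in VC- mice. Hand2 changed by -0.23 in VC- and 0.71 in VC+ mice. Hand2 was tested in the fit and did not pass (adjusted p = 0.9997). Sox10, with all genes in the fit, had adjusted p of 0.169 at day 2 and 0.566 at day 7. Cartpt in that fit had an adjusted p of 0.9999.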

How the results depend on the processing

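The 2 calls of VC- mice at day 7 were the least stable result. The count was 3 of 20 with array quality weights (24.4% of all tested genes) and 2 with quantile normalization (10.2%). It was 1 with no variance filter (Chrna3, 1 of 30 members, 3.19%), with the probe set of highest mean (Prph, 9.52%), with a trend and robust prior (10.7%) and with a smooth muscle term (8.64%). It was 0 with only the groups compared (0.033%), without the 3 arrays with Prss2 signal (1.95%) and with a Hoxb13 term (5.77%). It was also 0 with an epithelium term (5.57%) and without the 6 arrays with Xist signal (0.528%), which were both chosen after seeing the data. The median over the neuron genes in that comparison, 0.52, was 0.21 without the arrays with Prss2 signal and 0.11 with an epithelium term. Leaving out 1 array gave 0 to 6. Prph was called under 21 of 34 alternatives, with adjusted p from 0.0019 to 0.296, and Kif5a under 4 of 33, from 0.00058 to 0.326. With array quality weights, 7 members were called in VC+ mice at day 7, 17 between the genotypes at day 7 and 5 for the difference of the day 7 responses. Leaving out 1 array gave 0 to 16 between the genotypes at day 7. With no variance filter, 1 member (Sox10) was called in VC- mice at day 2. Between the genotypes at day 7, Tac1 (-0.44) turned to 0.123 with an epithelium term and Vip (-0.51) to 0.0702. Leaving out 1 array gave -0.949 to 0.0691 for Tac1 and -0.989 to 0.0474 for Vip, the positive values without VC- day 7 replicate 2. The cause of these changes was not tested. The median of the glia genes in VC- mice at day 2 moved from 0.47 to 0.27 without the arrays with Xist signal and to 0.26 without VC- day 2 replicate 2.

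The replicate numbers are not stated to pair samples. After subtracting group means, 18 of 48 pairs of arrays with the same number correlated above 0.1 (mean 0.08), against 36 of 152 other pairs (mean -0.03), and 13 of 22 arrays correlated best with their own number, a hint from the data that some numbers go together. Since neither the labels nor every pair bore this out, the numbers were not used as pairs. With the replicate block, the count in VC- mice at day 7 was 0 (4.07% of all tested genes), no count of another comparison changed, and the median in VC+ mice at day 2 was 0.08 in place of 0.27.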
